A study of Mus musculus with 6 samples.

Results

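Hras, Nras, Araf, Braf, Map2k1, Map2k2 and Mapk3 were followed through RNA sequencing of mouse thyroid organoids that carry an inducible oncogenic form of Braf. They are 7 of the 25239 genes in the count table and were chosen by their symbols, with earlier results of these data known. All 7 had enough reads to be tested. The question was whether the RNA of the cascade itself changed when the oncogene was switched on and when the cascade was then inhibited. The level of Braf RNA was 31.8% lower after oncogene activation and 40.6% lower than in untreated organoids when the inhibitors were added as well, whereas none of the other 6 genes passed the test in any comparison. None of the 7 reached a 2-fold difference.

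RAS proteins are small GTPases at the inner face of the cell membrane that switch on when growth factor receptors are engaged. GTP-bound RAS recruits RAF kinases, RAF phosphorylates the MEK kinases, and MEK phosphorylates ERK, which enters the nucleus and raises the transcription of growth and feedback genes. Thyroid cancers often carry mutations that keep this cascade on, most often the human BRAF V600E change, whose mouse counterpart is V637E.

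The organoids came from isolated clones of a mouse embryonic stem cell line, G4 RosaLuc, with the transgenes TRE-Nkx2-1-Pax8 and bTg-NES-BrafV637E-ERT2. In it, doxycycline turns on Nkx2-1 and Pax8, transcription factors that direct cells to the thyroid fate. A bovine thyroglobulin promoter, meant to act in follicular cells, drives a Braf V637E protein fused to the ligand-binding part of the estrogen receptor. This fusion is made without drug and becomes active when 4-hydroxytamoxifen (4OHT) binds it. All 3 groups carried every one of these alleles, had received doxycycline and 8-Br-cAMP, were enriched for follicles, and were collected at day 31. The cAMP group had ethanol vehicle in place of 4OHT. All 6 libraries came from the Braf line, and none from a line without the fusion that was treated with 4OHT. An effect of 4OHT itself therefore cannot be told apart from that of the active fusion. The 4OHT group received 1 µM 4OHT for 5 days, and the PD+LY group received 1 µM 4OHT together with 250 nM PD0325901, a MEK inhibitor, and 5 µM LY204002, a PI3K inhibitor, for 3 days. The methods describe inhibitor treatments as following 4 days of 4OHT alone, so that the total time in 4OHT may have been longer in PD+LY than in the 4OHT group, and the duration cannot be told apart from the inhibitors.

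Each group had 2 libraries of pooled wells, numbered 1 and 2, with 14898409 to 20637959 counts. No source used here says that the duplicates came from separate differentiations, so p-values measure the spread between these libraries, which may be technical. Of 10 thyroid follicular markers, 10 had at least 3 counts in every library. Markers of other cells moved with the groups: the summed level of 8 mesenchymal markers was 1183 to 1285 counts per 1000000 (CPM) in cAMP, 2231 to 2350 CPM in 4OHT and 4101 to 4827 CPM in PD+LY, and that of 8 pluripotency markers was 3540 to 3663, 3972 to 4151 and 4060 to 4370 CPM. The sum of the thyroid markers was 1111 to 1659 CPM in cAMP, 574.3 to 767.1 CPM in 4OHT and 998.9 to 1999 CPM in PD+LY. Most of it was the thyroglobulin gene Tg, at 1566 and 1022, 514.1 and 693.4, and 1870 and 907.0 CPM. Of the same list, Pax8 was at 15.2 and 15.2, 18.5 and 20.9, and 17.6 and 13.7 CPM. Nkx2-1 was at 13.8 and 13.3, 9.54 and 13.8, and 15.1 and 11.1 CPM. That of 5 neural progenitor markers was 48.9 to 49.3, 42.4 to 49.1 and 62.4 to 69.1 CPM, and that of 6 endothelial markers 157.1 to 166.1, 179.4 to 180.1 and 163.0 to 168.1 CPM. That of 4 macrophage markers was 64.6 to 67.3, 57.1 to 62.7 and 31.7 to 33.5 CPM, although Ptprc and Adgre1 among them had no counts in any library. In such bulk samples, fewer cells of a type and less RNA per cell cannot be told apart.

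The oncogenic change falls in a single codon of Braf. The gene lies on the minus strand of chromosome 6 (GRCm38, chr6:39603237-39725463), and in transcript Braf-201, of 9728 bases with a coding sequence of 2412 bases for 804 residues, residue 637 is a valine encoded in exon 18 at chr6:39627782-39627784. Beside this codon, the transgene differs from the endogenous gene in its promoter and in the fused receptor part. The reference sequence around the codon, which is shown because the transgene carries the codon in mutated form, reads as follows with the valine codon in capitals.
Braf codon 637: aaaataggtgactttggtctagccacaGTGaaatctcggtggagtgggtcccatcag
The deposited values are counts per gene, so reads of the transgene and of the endogenous Braf gene cannot be told apart. The coding sequence, from which the fusion derives, is only a part of the 13862 bases of annotated Braf exon.

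The region around the Braf start site is shown next, because Braf was the member whose RNA level passed the test. It spans 250 bases before and 50 bases after the annotated start (RefSeq, GRCm38.p6, chr6:39725414-39725713, minus strand), and capitals mark the matches described after it.
Braf promoter: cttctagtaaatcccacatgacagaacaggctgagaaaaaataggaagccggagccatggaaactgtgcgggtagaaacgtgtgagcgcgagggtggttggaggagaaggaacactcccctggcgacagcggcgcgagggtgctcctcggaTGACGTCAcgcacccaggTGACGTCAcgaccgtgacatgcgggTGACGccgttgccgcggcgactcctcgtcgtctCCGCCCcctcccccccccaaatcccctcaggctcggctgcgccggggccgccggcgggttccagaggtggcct
It holds 2 copies of the palindromic cAMP response element (CRE), TGACGTCA, which begin 99 and 81 bases before the start site. Of 32851 mouse promoter windows of the same length, 588 (1.79%) held at least 1 such element and 13 (0.0396%) held 2 or more. The shorter element TGACG, searched on both strands, matched 5 times, 4 of them inside the full elements, and 20.8% of windows held it. A GC box (GGGCGG, printed here as its reverse complement CCGCCC) was present once, as in 35.7% of windows on either strand. The ETS motif CCGGAAG (8.86% of windows) and the E-box CACGTG (7.15%) were not found in this window. Promoter windows were matched for 6 of the 7 genes, the exception being Mapk3, and no full CRE was found in those of Hras, Nras, Araf, Map2k1 or Map2k2. Such matches describe letters and are not evidence of binding.

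Neither RAS gene passed the test in any comparison. Hras (GRCm38, chr7:141189105-141194005) encodes a RAS GTPase named after a rat sarcoma virus. Its level was 44.0 and 48.1 CPM in cAMP, 50.2 and 43.2 CPM in 4OHT, and 41.5 and 49.9 CPM in PD+LY. The 3 groups overlapped, and the log2 fold change of 4OHT over cAMP was 0.02 ± 0.13 (SE, n = 2 libraries per group; edgeR quasi-likelihood test, adjusted p = 0.951). With the inhibitors the log2 fold change was -0.03 ± 0.13 over 4OHT (95% interval -0.32 to 0.26) and -0.01 ± 0.13 over cAMP. Its sign turned when single libraries were left out, with log2 fold changes between -0.17 and 0.13 over the comparisons.

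Nras (chr3:103058285-103067914), a second RAS GTPase and one often mutated in follicular thyroid tumours, was the more abundant of the pair. Its level was 160.5 and 140.5 CPM in cAMP, 137.2 and 143.7 CPM in 4OHT, and 141.8 and 121.0 CPM in PD+LY. The libraries overlapped in every comparison. The log2 fold change was -0.10 ± 0.11 for 4OHT over cAMP (adjusted p = 0.624) and -0.20 ± 0.11 for PD+LY over cAMP (95% interval -0.43 to 0.04; edgeR, adjusted p = 0.206), and without PD+LY library 1 the latter was -0.31 with an adjusted p of 0.0411.

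Among the RAF kinases, Braf stood out. Its level was 95.3 and 85.5 CPM in cAMP, 61.8 and 61.4 CPM in 4OHT, and 59.2 and 48.1 CPM in PD+LY, or 90.4 ± 6.98, 61.6 ± 0.242 and 53.7 ± 7.88 CPM (SD, n = 2). Both cAMP libraries lay above all 4 others, and both 4OHT libraries lay above both PD+LY libraries. Braf RNA fell after 4OHT with a log2 fold change of -0.55 ± 0.12 (SE; 95% interval -0.82 to -0.29; edgeR, adjusted p = 0.0165), a change of -31.8%. From cAMP to PD+LY it fell with a log2 fold change of -0.75 ± 0.12 (95% interval -1.01 to -0.49; adjusted p = 0.00085), a change of -40.6%. The additional difference between PD+LY and 4OHT, -0.20 ± 0.12 (95% interval -0.46 to 0.07; adjusted p = 0.259), did not pass the test. The comparisons share libraries and are not independent of each other.

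**Figure D1:**
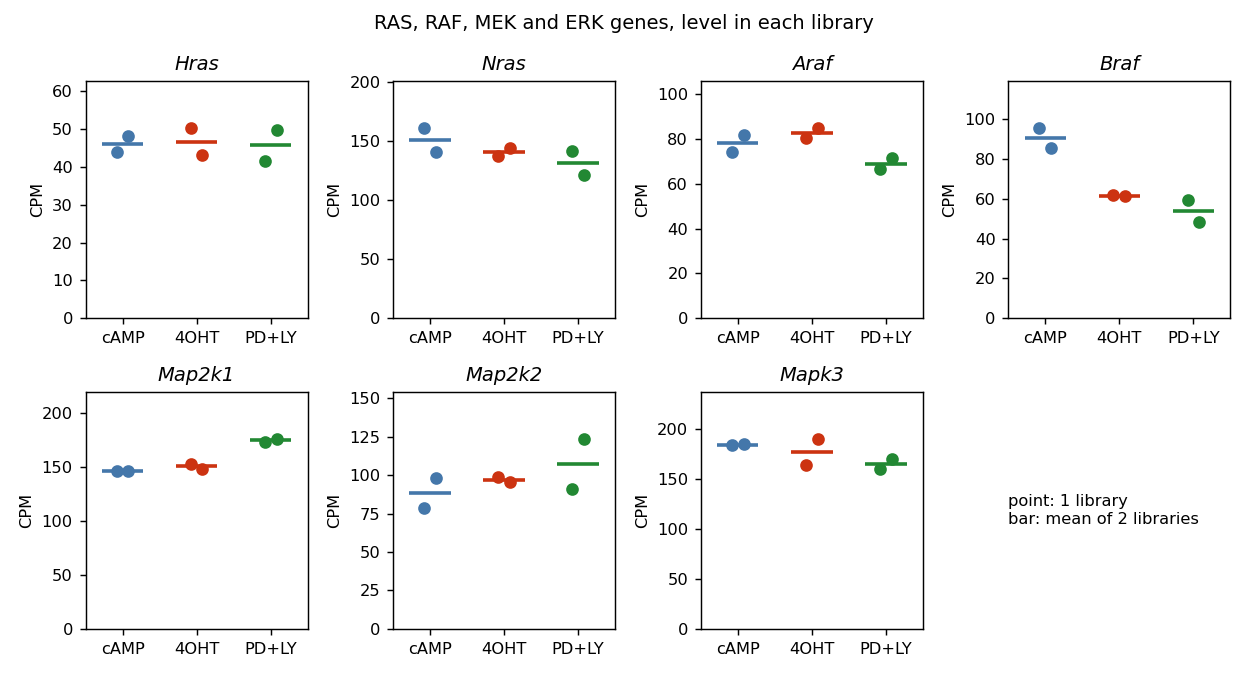
Level of each gene in CPM on the vertical axis, which starts at 0, for the cAMP, 4OHT and PD+LY groups on the horizontal axis; points are libraries and bars the mean of 2 libraries. Braf lies at 85.5 to 95.3 CPM in cAMP and at 48.1 to 61.8 CPM in the other 4 libraries, while the groups of Hras and Nras overlap.

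The lower Braf level from cAMP to PD+LY passed the threshold in 13 of 13 other processing settings, with log2 fold changes of -0.91 to -0.61. From cAMP to 4OHT the direction held in all 13, with log2 fold changes of -0.63 to -0.47, but the call was lost without cAMP library 1 (-0.47, adjusted p = 0.128), without 4OHT library 1 (-0.55, adjusted p = 0.157) and without 4OHT library 2 (-0.55, adjusted p = 0.15). The comparison of PD+LY with 4OHT became a call without PD+LY library 1 (-0.36, adjusted p = 0.0419).

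Because the fusion is driven by a thyroglobulin promoter, Braf was set beside Tg, the gene of the thyroid hormone precursor. Tg was at 1566 and 1022 CPM in cAMP, 514.1 and 693.4 CPM in 4OHT, and 1870 and 907.0 CPM in PD+LY. Tg fell with 4OHT (log2 fold change -1.10 ± 0.27; edgeR, adjusted p = 0.0304) and rose with the inhibitors (1.20 ± 0.27 over 4OHT, adjusted p = 0.00913), whereas Braf was lowest in PD+LY. The Tg calls rested on few libraries. The first was lost without cAMP library 1 (-0.76, adjusted p = 0.144), 4OHT library 1 (-0.90, 0.257) or 4OHT library 2 (-1.33, 0.0859). The second was lost without 4OHT library 1 (1.00, adjusted p = 0.0901) or PD+LY library 1 (0.59, 0.0521), and with DESeq2 on all 6 libraries the adjusted p values were 0.186 and 0.0766. With DESeq2 on only the 4 libraries compared, the second had an adjusted p of 0.12. The ratio of Braf to Tg counts was 0.0609 and 0.0836 in cAMP, 0.12 and 0.0886 in 4OHT, and 0.0317 and 0.053 in PD+LY. The endogenous Tg gene and the bovine promoter may not be equally active, and the share of Braf reads from the transgene was not tested. The summed mesenchymal markers given above were higher in each group in which Braf was lower, and their part in the Braf result was not tested.

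The second RAF kinase, Araf (chrX:20797814-20860519), did not follow Braf from cAMP to 4OHT. Its level was 74.5 and 81.9 CPM in cAMP, 80.7 and 84.8 CPM in 4OHT, and 66.8 and 71.4 CPM in PD+LY. PD+LY lay below the other groups without overlap, whereas cAMP and 4OHT overlapped. The log2 fold change was 0.08 ± 0.10 for 4OHT over cAMP (adjusted p = 0.687) and -0.26 ± 0.10 for PD+LY over 4OHT (95% interval -0.48 to -0.04; edgeR, unadjusted p = 0.0269, adjusted p = 0.0895). For PD+LY over cAMP it was -0.18 ± 0.10 (adjusted p = 0.226).

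The ratio of Braf to Araf counts does not depend on how libraries are scaled to each other. It was 1.28 and 1.04 in cAMP, 0.765 and 0.725 in 4OHT, and 0.886 and 0.674 in PD+LY. Braf thus had more counts than Araf in both cAMP libraries and fewer in the other 4, and the 4OHT and PD+LY groups overlapped. Against Map2k1, the ratio of Braf counts was 0.65 and 0.583 in cAMP, 0.403 and 0.413 in 4OHT, and 0.341 and 0.273 in PD+LY, with no overlap between any of the groups.

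**Figure D2:**
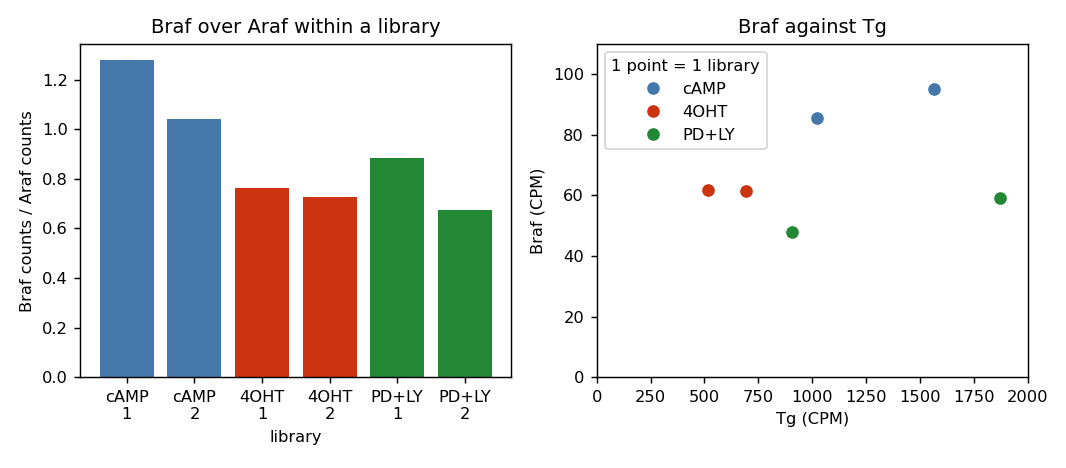
Left, ratio of Braf to Araf counts (vertical axis) in each library (horizontal axis); right, Braf against Tg, both in CPM, with 1 point per library and axes from 0. The ratio is 1.04 or more in both cAMP libraries and 0.886 or less in the other 4, and PD+LY library 1 combines the highest Tg level (1870 CPM) with 59.2 CPM of Braf.

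Neither MEK gene passed the test in any comparison. Map2k1 (chr9:64185770-64253631) encodes MEK1, a kinase that phosphorylates ERK and a target of PD0325901. It was at 146.7 and 146.5 CPM in cAMP, 153.3 and 148.7 CPM in 4OHT, and 173.5 and 175.9 CPM in PD+LY. Both PD+LY libraries lay above all others. The log2 fold change of PD+LY was 0.21 ± 0.09 over 4OHT (95% interval 0.02 to 0.40; edgeR, unadjusted p = 0.032, adjusted p = 0.10) and 0.25 ± 0.09 over cAMP (95% interval 0.06 to 0.44; adjusted p = 0.0504). The latter lay at the threshold: the adjusted p was 0.0487 with another scaling of the libraries (RLE) and 0.0421 without PD+LY library 1. Between 4OHT and cAMP the log2 fold change was 0.04 ± 0.09 (adjusted p = 0.814).

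Map2k2 (chr10:81105915-81133975) encodes MEK2, the close relative of MEK1. It was at 78.4 and 98.4 CPM in cAMP, 98.7 and 95.6 CPM in 4OHT, and 91.3 and 123.4 CPM in PD+LY, and its groups overlapped. Its standard errors were the largest of the 7, and the log2 fold change of PD+LY over cAMP of 0.28 ± 0.14 (edgeR, adjusted p = 0.181) became 0.48 with an adjusted p of 0.0121 without PD+LY library 1. The other log2 fold changes were 0.13 ± 0.15 for 4OHT over cAMP and 0.14 ± 0.14 for PD+LY over 4OHT.

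Per length of exon, Map2k1 made up 75.8 and 71.3% of the MEK counts in cAMP, 72.2 and 72.2% in 4OHT, and 76.0 and 70.4% in PD+LY. The groups overlapped, and their mean shares differed by -1.34 points (4OHT minus cAMP), 1.04 points (PD+LY minus 4OHT) and -0.30 points (PD+LY minus cAMP), each with p = 1 in a two-sided exact permutation test, which cannot go below 0.333 with 2 libraries against 2. With single libraries left out, all 3 differences took either sign (-3.57 to 0.882, -1.76 to 3.84 and -3.1 to 2.5 points).

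At the end of the cascade, Mapk3 (chr7:126759601-126765819) encodes ERK1. Its level was 184.0 and 184.3 CPM in cAMP, 164.1 and 189.5 CPM in 4OHT, and 159.8 and 169.4 CPM in PD+LY. PD+LY lay below cAMP without overlap, but 4OHT overlapped both groups. The log2 fold change was -0.06 ± 0.10 for 4OHT over cAMP (adjusted p = 0.765), -0.10 ± 0.10 for PD+LY over 4OHT (adjusted p = 0.473) and -0.16 ± 0.10 for PD+LY over cAMP (95% interval -0.37 to 0.05; edgeR, adjusted p = 0.247).

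**Figure D3:**
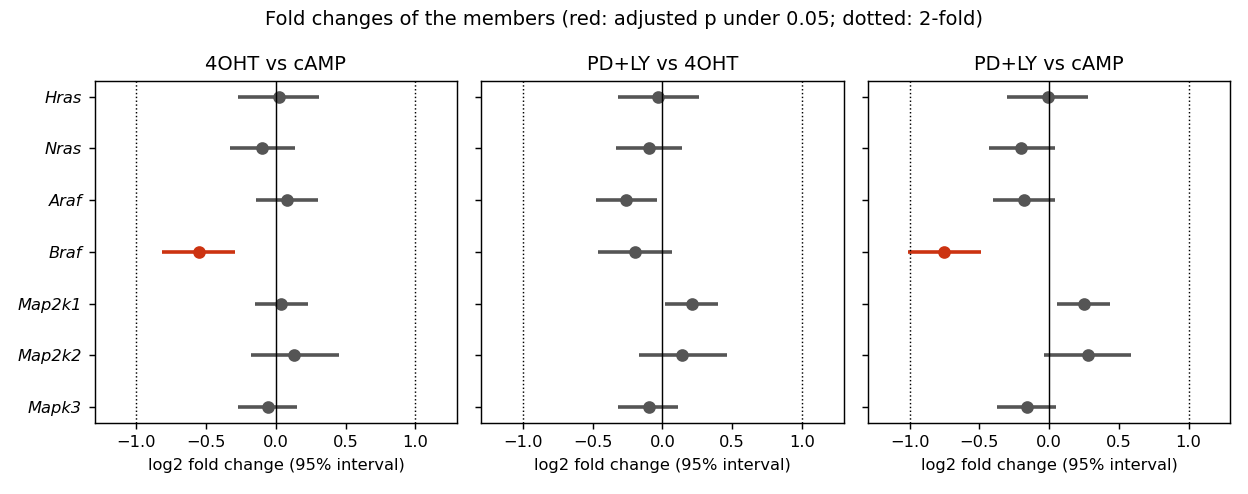
Log2 fold change (horizontal axis) of each gene in the 3 comparisons; points are estimates, lines 95% intervals, dotted lines mark a 2-fold difference, and red marks an adjusted p under 0.05. Braf is red at -0.55 and at -0.75, and the lower end of its interval for PD+LY over cAMP (-1.01) is the only one to cross the 2-fold line.

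Counted over the genes, 1 of 7 fell and 0 rose from cAMP to 4OHT at an adjusted p under 0.05, where 8.39% of the 15256 tested genes were called, 4.35% lower and 4.04% higher. At an unadjusted p under 0.05 it was 1 of 7, against 24.0%. In PD+LY over 4OHT, 0 of 7 were called by edgeR, against 22.7% of all tested genes (12.1% lower and 10.7% higher). At an unadjusted p under 0.05 there were 2 of 7 (Araf and Map2k1; 36.8% of all tested genes), and DESeq2 also called 0. In PD+LY over cAMP, 1 of 7 fell and 0 rose, against 25.7% of all tested genes (13.7% lower and 12.1% higher), and 2 of 7 (Braf and Map2k1) had an unadjusted p under 0.05, against 38.1%. None of the 7 passed both the adjusted p and a 2-fold difference, as 2.67, 7.26 and 9.24% of all tested genes did in the 3 comparisons. The median log2 fold change of the 7 genes was 0.02, -0.10 and -0.16 in the 3 comparisons, against medians over all tested genes of 0.00, 0.01 and 0.00. Libraries did not overlap for 2, 3 and 4 of the 7 genes, where 58.5, 62.3 and 61.4% of all tested genes did not overlap.

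How far the data bound a change can be read from the intervals. The 95% interval lay within 2-fold in either direction for 7 of 7 genes from cAMP to 4OHT, where this held for 72.3% of all tested genes. It did so for 7 of 7 in PD+LY over 4OHT (67.3%) and for 6 of 7 in PD+LY over cAMP (66.9%), the exception being Braf. The 7 genes were well covered, with mean log2 levels at percentiles 67.1 (Hras) to 92.8 (Mapk3) of the tested genes.

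Summed over the 7 genes, the level was 783.5 and 785.3 CPM in cAMP, 746.0 and 766.9 CPM in 4OHT, and 733.9 and 759.2 CPM in PD+LY. Without Braf, the sums ran from 688.2 to 699.8 CPM in cAMP, from 684.2 to 705.4 CPM in 4OHT and from 674.7 to 711.1 CPM in PD+LY, and the 3 groups overlapped. Braf made up 12.2 and 10.9% of the sum in cAMP, 8.28 and 8.01% in 4OHT, and 8.07 and 6.33% in PD+LY. Both cAMP shares lay above the other 4.

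Levels of different genes were compared per kilobase of annotated exon (CPM per kb). Mapk3 was highest at 70.8 to 83.9 CPM per kb over the 6 libraries, followed by Map2k1 at 43.2 to 51.9 and Nras at 22.7 to 30.1 CPM per kb. Map2k2 lay at 13.8 to 21.8 CPM per kb. Hras (11.1 to 13.5 CPM per kb) and Araf (10.2 to 13.0 CPM per kb) were not separated, as Hras was the higher in 5 of 6 libraries and their ranges overlapped. Braf was lowest at 3.47 to 6.88 CPM per kb. All other neighbours in this order were separated in 6 of 6 libraries. With the longest annotated transcript as the length, Mapk3, Map2k1 and Braf kept their rank, while Map2k2 moved above Nras and Araf above Hras. The long annotated exons of Braf, much of them outside the coding sequence, weigh on its value.

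**Figure D4:**
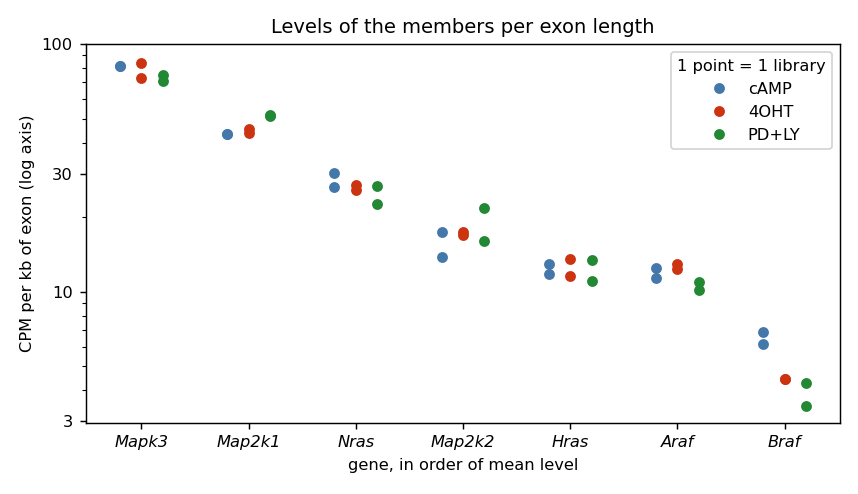
Level per kilobase of exon (vertical axis, log scale) of each gene, ordered from left to right by its level; points are libraries, coloured by group. Mapk3 is at 70.8 to 83.9 CPM per kb and Braf at 3.47 to 6.88 CPM per kb in the 6 libraries, and the ranges of Hras and Araf overlap.

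Little of the annotated sequence of these genes was shared with other genes, and its effect on the counts was not tested. Braf shares 146 bases of exon, 1.05% of its exon length, with Ndufb2 on the opposite strand, and Araf shares 9 bases with Syn1. Counting ignored strand, so reads in these stretches cannot be assigned to one gene of each pair. Of all 50-base words in the annotated transcripts, 1.13% recurred in other genes for Araf, 0.733% for Nras and 0.691% for Braf. The value was 0.207% or less for Hras, Map2k1, Map2k2 and Mapk3. Map2k1 and Map2k2, the closest pair, had only 7 words in common.

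Genes whose levels over the 6 libraries were most like those of Braf were Sema3e, a semaphorin (Pearson r of log2 CPM 0.9969), Kif11, a mitotic kinesin (0.9955), and Chd9, a chromatin remodeller (0.995). The likeness is a description over 6 libraries in 3 groups, and 563 genes had r above 0.9. Sema3e was at 15.1 and 11.8 CPM in cAMP, 6.74 and 6.53 CPM in 4OHT, and 6.57 and 4.62 CPM in PD+LY.

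Around the cascade, 9 lists of genes by role held 84 genes, all of which were tested. From cAMP to 4OHT, 2 rose and 4 fell, where 8.39% of all tested genes were called, and their median log2 fold change was -0.09. Mras, a RAS-related GTPase that takes part in RAF activation, rose from 5.6 and 6.58 CPM to 10.5 and 10.8 CPM (log2 fold change 0.80 ± 0.18; edgeR, adjusted p = 0.0184). Hsp90aa1, a chaperone on which RAF kinases depend, rose by 0.30 ± 0.07 on the log2 scale (adjusted p = 0.0254). Rasgrp3, an exchange factor that loads RAS with GTP, fell from 3.65 and 2.68 CPM to 0.267 and 0.329 CPM (-3.36 ± 0.61, adjusted p = 0.00373). Mapk12, a p38 kinase (-0.81 ± 0.20, adjusted p = 0.0287), Rps6ka2, a ribosomal S6 kinase activated by ERK (-0.46, adjusted p = 0.0166), and Spred2, a RAS pathway inhibitor (-0.39, adjusted p = 0.0474), made up the rest. With fewer libraries the calls were lost while the log2 fold changes stayed similar. Rasgrp3 missed the threshold without 4OHT library 1 (-3.23, adjusted p = 0.057), and Mras without cAMP library 1 or either 4OHT library (0.69 to 0.82, adjusted p up to 0.142). Hsp90aa1 (0.26 to 0.35), Mapk12 (-0.90 to -0.73), Rps6ka2 (-0.50 to -0.42) and Spred2 (-0.43 to -0.35) missed it without any 1 of the 4 libraries compared (adjusted p up to 0.333).

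In PD+LY over 4OHT, 13 of the 84 rose and 13 fell, where 10.7% of all tested genes rose and 12.1% fell, and the median log2 fold change of the 84 was 0.05. The genes that fell included inhibitors of RAS signalling: Spred1 fell from 39.1 and 37.2 CPM to 21.1 and 13.0 CPM (-1.16 ± 0.19, adjusted p = 0.00137), Spred3 by 1.68 and Rasal1, a GTPase-activating protein, by 0.94 on the log2 scale. Of the 11 genes in that list 3 fell and 2 rose. Of 10 RAS effectors outside the RAF branch, 4 fell and 1 rose, with Rassf1 at -1.22 ± 0.17, Rin1 at -1.20 ± 0.22 and Rgl1 at -1.03 ± 0.15. Among 11 adaptors and RAS activators, 3 rose and 1 fell. Grb2, the adaptor that links receptors to RAS exchange factors, rose from 121.8 and 125.7 CPM to 179.3 and 188.5 CPM (0.57 ± 0.09, adjusted p = 0.0011), and the exchange factor Rasgrp2 fell by 1.48. Of 11 other MAP kinases 4 fell and 1 rose, and Mapk12 fell from 10.7 and 12.1 CPM to 2.95 and 4.77 CPM (-1.56 ± 0.23, adjusted p = 0.000623). The genes named above for this comparison passed the threshold in every alternative setting. Only up to 3 called genes with the largest change per list were checked in this way, and the rest of those in these lists did not pass throughout. Mapk11 (-1.38, edgeR adjusted p = 0.0133) missed the threshold in 3 alternatives. These were without 4OHT library 2, without PD+LY library 1, where it was -1.0, and with DESeq2 on the 4 libraries compared. Mapk15, an atypical MAP kinase (-1.19, edgeR adjusted p = 0.0475), missed it in 5 alternatives. These were both DESeq2 settings and without 4OHT library 1, 4OHT library 2 or PD+LY library 1, where it was -0.74. Sos2, an exchange factor (0.46, edgeR adjusted p = 0.0209), missed it in 3, without either 4OHT library or PD+LY library 1, where it was 0.35. Mapk13, which also fell (-1.04, edgeR adjusted p = 0.000353), was not among the genes checked.

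In the remaining lists, of 13 RAF chaperones, scaffolds and modulators 2 rose, of 9 enzymes that process RAS 2 rose, with Lypla1, a depalmitoylating enzyme, at 0.88 (adjusted p = 0.00178), and of 7 kinases downstream of ERK 1 rose and 1 fell. Of 7 RAS-related GTPases 1 rose, with a median of 0.19, and the 5 other MAP2 kinases had a median of 0.06. Over all tested genes, 10.7% rose and 12.1% fell. Apart from Lypla1, each call in these lists (Ksr1, Ywhab, Zdhhc9, Rps6ka4, Rps6ka5 and Mras) missed the threshold in at least 1 alternative. For Mras (0.57) this included DESeq2 on all 6 libraries, with an adjusted p of 0.0536.

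In PD+LY over cAMP, 9 of the 84 rose and 15 fell, where 12.1% of all tested genes rose and 13.7% fell, and the median log2 fold change was -0.09. Mras was at 16.1 and 15.5 CPM in PD+LY, a log2 fold change of 1.37 ± 0.17 over cAMP (edgeR, adjusted p = 0.000173) that passed in every setting. Mapk12 (-2.37 ± 0.22, adjusted p = 1.99e-05), Mapk11, also a p38 kinase (-2.31 ± 0.33, adjusted p = 0.000348), and Spred3 (-2.14 ± 0.30, adjusted p = 0.000276) fell. The mesenchymal marker sum was also higher in PD+LY than in cAMP, and its part in these values was not tested.

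Transcripts that ERK signalling is known to raise were read as a partial readout downstream of the 7 genes. The paper scored ERK output on a longer gene list and reported a modestly higher score in 4OHT. It proposes that remaining non-thyroid cells may explain why the increase was modest. By Western blot it also reported more phosphorylated ERK after 4OHT. From cAMP to 4OHT, 1 of 12 rose and 3 fell (median log2 fold change 0.06), where 4.04% of all tested genes rose and 4.35% fell. Etv4, an ETS factor, rose from 22.1 and 20.0 CPM to 36.8 and 36.6 CPM (0.80 ± 0.14, edgeR adjusted p = 0.0064). Dusp6, a phosphatase of ERK, fell from 46.5 and 47.6 CPM to 27.6 and 29.3 CPM (-0.72 ± 0.12, edgeR adjusted p = 0.00489). Spry1 (-0.64 ± 0.13, edgeR adjusted p = 0.0111) and Etv5 (-0.54 ± 0.09, edgeR adjusted p = 0.00467) also fell. Spry1 missed the threshold without any 1 of the 4 libraries compared (-0.75 to -0.53), and Etv5 was not among the genes checked. Etv4 missed the threshold without cAMP library 2 or either 4OHT library (adjusted p up to 0.0837), and Dusp6 without either 4OHT library (up to 0.0914). In PD+LY over 4OHT, 11 of 12 fell and 0 rose, with a median log2 fold change of -2.24, where 12.1% of all tested genes fell and 10.7% rose. Spry4, a feedback inhibitor, went from 21.1 and 20.1 CPM to 0.255 and 0.243 CPM (-6.33 ± 0.41, edgeR adjusted p = 1.18e-07). Fosl1, an AP-1 subunit with 11 and 30 counts in 4OHT and none in PD+LY, was at least 16.6-fold lower against a floor of 3 counts over the group, and the median was the same with this bound. The Fosl1 call was lost without 4OHT library 2, the one with 30 counts. In the same 4 libraries the log2 fold changes of the 7 cascade genes lay between -0.26 and 0.21.

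**Figure D5:**
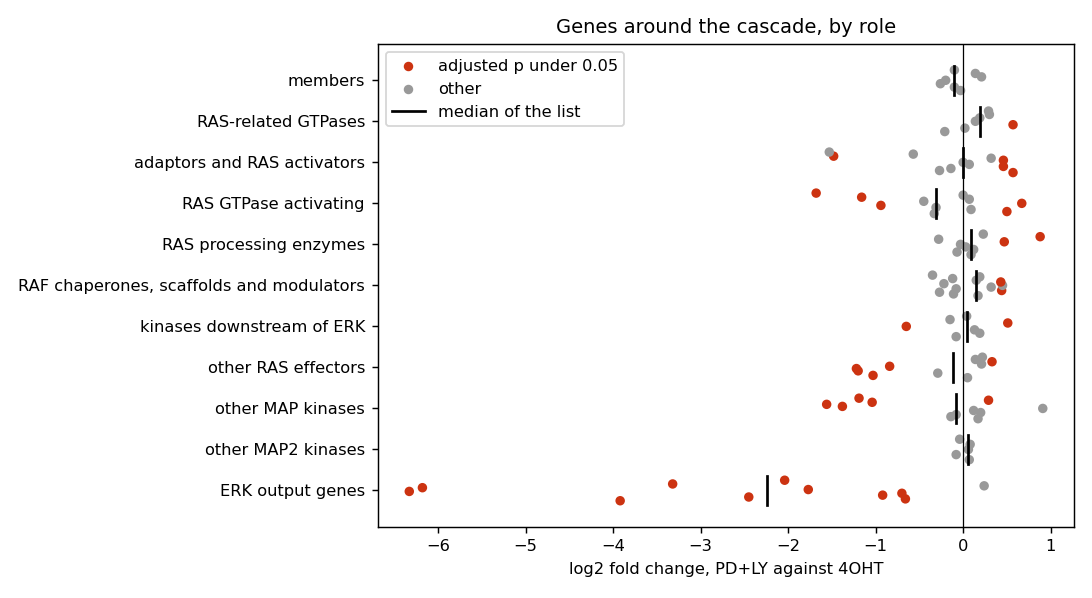
Log2 fold change of PD+LY over 4OHT (horizontal axis) for the 7 cascade genes (members) and for the lists around them (vertical axis); points are genes, red where the adjusted p was under 0.05, and black bars are medians. The 7 genes lie between -0.26 and 0.21, while the ERK output genes have a median of -2.24; Fosl1, without counts in PD+LY, is left out of the points.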

How the data were processed

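RNA of 6 libraries, 2 per group, was analysed. The authors trimmed reads with Trimmomatic, aligned them to mm10 with HISAT2 and used HTSeq for counting, ignoring strand although the kit keeps it; versions are not given in the sources used here. The deposited values are raw counts per gene symbol, whole numbers without normalization.

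From these counts, filterByExpr (minimum count 10, minimum total 15) kept 15256 genes and removed 9983. TMM factors were 0.99 to 1.01. In edgeR 4.0.16 (R 4.3.3) all 6 libraries entered a single quasi-likelihood fit with a mean per group. P-values were adjusted by Benjamini-Hochberg over all 15256 genes, with thresholds of 0.05 and 2-fold. Standard errors and 95% intervals came from the weights and the moderated dispersion of the fit, and the common biological coefficient of variation was 0.105. CPM are counts per 1000000 of the TMM-scaled library. The procedure was tested on simulated data. Alternatives were DESeq2 1.42.0, RLE scaling, other filters, fewer libraries, a replicate block and each library left out.

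The named genes were the 7 members in full, up to 3 called genes with the largest change per list and comparison, and the 3 genes most like Braf. The members, lists and markers were chosen with earlier results of these data known. Gene models came from GENCODE M21 (GRCm38, the build of mm10) and promoters from RefSeq; which annotation the authors counted on is not given in the sources used here. Ranges of counting error were not computed, and 1 count equalled 0.0485 to 0.0671 CPM. Duplicates differed by more than counting noise (chi-square per degree of freedom 4.63 to 18.5), so no file was the same library deposited again; this does not show that they were independent cultures.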

Additional observations from a re-analysis of the deposited data

How the results depend on the processing

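Over 13 alternatives and 3 comparisons, 252 of 273 log2 fold changes of the members kept their direction and side of the threshold, 3 lost a call, 7 gained one and 11 turned sign without being called. Without single libraries the number of members called was 0 to 1 in 4OHT over cAMP, 0 to 1 in PD+LY over 4OHT and 1 to 4 in PD+LY over cAMP. The 4 without PD+LY library 1 were Nras, Braf, Map2k1 and Map2k2. Sign turned with single libraries left out for Hras (4OHT over cAMP -0.09 to 0.13, PD+LY over 4OHT -0.17 to 0.10, PD+LY over cAMP -0.15 to 0.12), Nras (PD+LY over 4OHT -0.21 to 0.01), Map2k2 (-0.02 to 0.31 in 4OHT over cAMP and -0.09 to 0.35 in PD+LY over 4OHT) and Mapk3 (-0.16 to 0.04 and -0.20 to 0.01). With RLE scaling 2 members were called in PD+LY over cAMP. The numbers of the duplicates did not pair the libraries (correlations of the duplicate differences 0.0586 to 0.207 over 2 numbers). With the number as a replicate block, 1 member was called in PD+LY over 4OHT (Araf, adjusted p = 0.0438) and 2 in PD+LY over cAMP (Map2k1 at 0.0271), and 2373 genes were called in 4OHT over cAMP. Esr1 was also called in PD+LY over 4OHT (adjusted p = 0.0432). In 4OHT over cAMP the call count over all genes, 1280, was 2186 without a filter and 2307 with only the 4 libraries compared. Without single libraries it was 216 to 2314 (at 2-fold, 164 to 487), and 1198 to 4158 in PD+LY over 4OHT (632 to 1176 at 2-fold) and 2351 to 4287 in PD+LY over cAMP. With the longest transcript as length 3 of 7 genes kept their rank. The cause of these shifts was not tested. Shares within the RAS, RAF and ERK families were not run.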

Other observations

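The other promoters that hold the full CRE give a setting for that of Braf. Of 11974 tested genes with a promoter window, 413 held at least 1 full CRE. Of these, 20 (4.84%) fell and 14 rose from cAMP to 4OHT, where 4.15% of all 11974 fell. In PD+LY over 4OHT 49 (11.9%) fell, against 11.9% of all, and in PD+LY over cAMP 58 (14.0%) fell, against 13.4% of all. Of 12 tested genes with at least 2 full elements, 2 fell from cAMP to 4OHT, 0 in PD+LY over 4OHT and 1 in PD+LY over cAMP, Braf included in the first and the last. These counts are a description.

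Reads of Esr1, a mouse estrogen receptor gene, were few: 6 and 6 counts in cAMP, 24 and 11 in 4OHT, and 50 and 52 in PD+LY. Esr1 rose from cAMP to PD+LY (log2 fold change 2.91 ± 0.60; edgeR, adjusted p = 0.00249), in the libraries in which Braf was lowest, and did so in 12 of 12 alternatives (2.74 to 3.09). The values of 4OHT over cAMP (1.68 ± 0.63, adjusted p = 0.114) and of PD+LY over 4OHT (1.23 ± 0.47, adjusted p = 0.0803) did not pass, but without a filter on low counts their adjusted p values were 0.0393 and 0.034, and 4OHT libraries moved them: without 4OHT library 1 they were 0.86 (adjusted p = 0.619) and 2.06 (adjusted p = 0.0482), and without 4OHT library 2 they were 2.25 (adjusted p = 0.086) and 0.67 (adjusted p = 0.459). Whether the reads came from the endogenous gene or from the fusion, whose receptor species is not given in the sources used here, was not tested. Nkx2-1 and Pax8, which doxycycline turns on in this line, did not pass the test in any comparison, with log2 fold changes of -0.21 to 0.16 and -0.34 to 0.38.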
